A study of Mus musculus with 9 samples.

Results

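A graded trend was measured over 9 RNA sequencing libraries of Mac1+ bone marrow cells, from control through a Flt3 internal tandem duplication (ITD) to a triple-allele genotype. All 9 libraries of the series entered it. The 3 libraries named WT were scored 0, the 2 named ITD were scored 1 and the 4 named DKOITD were scored 2. A line of log2(RPKM + 1) on this score was fitted for each gene with at least 1 RPKM in at least 2 libraries, which kept 10868 of 23420 gene symbols. RPKM is a read count scaled to transcript length and library size. The slope is the change in log2(RPKM + 1) per step of the score, and the words rise and fall are kept for genes whose slope passed an adjusted p of 0.05 (limma, Benjamini-Hochberg over all 10868 genes). The fit asks which genes move at each step and which move with the last one only.

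All animals were C57BL/6 mice with floxed Ezh2 and Runx1 alleles (Ezh2 fl/fl Runx1 fl/fl), so the WT libraries are controls with unrecombined floxed alleles. The ITD genotype adds 1 Flt3 ITD allele (Flt3 ITD/+) without Cre. The DKOITD genotype carries Flt3 ITD/+ and Rag1Cre. Each library was made from 100 sorted Mac1+ cells by Smart-seq2, which reads full-length transcripts without keeping their strand. The last step of the score therefore joins Cre and its deletion of Ezh2 and of Runx1, which cannot be told apart here because no library carries 1 of them alone. Rag1 is a recombinase gene of early lymphoid cells, and how many of the sorted Mac1+ cells ever expressed Cre is not stated in the labels. The ages of the mice and whether the libraries of a group came from separate animals are not stated either, so the tests speak only of spread among these libraries, which may be technical.

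FLT3 is a receptor tyrosine kinase of early progenitors and of dendritic cells, and its ITD form signals without ligand. EZH2 is the methyltransferase of the polycomb complex PRC2, which places a repressive mark on histone H3, and RUNX1 is a transcription factor of blood cell development. Mac1 is the integrin αM chain (Itgam), carried by granulocytes and monocytes and by some dendritic cells, so a Mac1+ gate in marrow holds mostly maturing neutrophils.

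Sequencing depth, read from the whole-number steps of the RPKM values, ran from 2824091 reads (DKOITD 2) to 23114869 reads (WT 1), and it was lowest in DKOITD 2 and ITD 1 (5106319 reads). WT 2 stood apart, correlating with the other libraries at a median of 0.759 across genes, against 0.815 to 0.881 for the rest. The numbers that begin the sample names lie in the 200s for DKOITD 1 to 3 and in the 300s for DKOITD 4 and all ITD and WT libraries, and what they stand for is not stated. Genotype and number series therefore overlap at the last step, and DKOITD 4 is given beside the results for this reason.

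Of the 3 targeted genes, Ezh2 and Runx1 did not pass the trend test and Flt3 rose. Ezh2, on mm10 chromosome 6, 47530139 to 47595341, measured 9.69, 2.06 and 12.4 RPKM in WT, 12.9 and 18.99 in ITD and 18.1, 1.54, 8.04 and 10.2 in DKOITD. Runx1 (chromosome 16, 92601466 to 92826149) measured 10.7, 13.02 and 3.52 RPKM in WT, 4.42 and 4.42 in ITD and 16.4, 14.9, 17.6 and 10.4 in DKOITD. For Ezh2 both ITD libraries were above every WT library, and the DKOITD libraries overlapped both groups. For Runx1 both ITD libraries were below every DKOITD library and inside the WT range (last step 1.52 ± 0.52, SE, adjusted p = 0.179, limma). Neither slope passed the test (0.04 ± 0.36 for Ezh2, adjusted p = 0.959; 0.43 ± 0.27 for Runx1, adjusted p = 0.291; SE, limma). A value for the whole gene does not resolve a deleted exon, so it checks little about the deletion. Flt3 (chromosome 5, 147330741 to 147400489) measured 0.0146, 0.145 and 0 RPKM in WT, 0 and 10.4 in ITD and 34.5, 26.1, 39.2 and 8.80 in DKOITD. The DKOITD libraries were all above WT, while one ITD library was listed at 0 and the other lay above DKOITD 4. Flt3 rose by 2.30 ± 0.37 per step (SE, adjusted p = 0.0036, limma).

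Of the 10868 genes, 1458 passed the trend test (13.4%). Of these, 838 rose (7.71%) and 620 fell (5.7%). Genes of dendritic cells and MHC class II rose and genes of maturing neutrophils fell. In the mean over those lists, the ITD libraries lay about midway between WT and DKOITD for the dendritic genes and near WT for the neutrophil genes. Quantile normalization turned the split to 710 higher and 817 lower, and scaling to each library's own recovered reads gave 2621 higher and 259 lower with a median slope over all genes of 0.37 against 0.09. Single libraries moved the counts as well, to 326 higher and 223 lower without DKOITD 3, 358 and 234 without DKOITD 1, and 498 and 362 without WT 2. Directions below are relative to the other genes for this reason. The counts of some lists, not of all that turn, are given under those scalings.

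**Figure D1:**
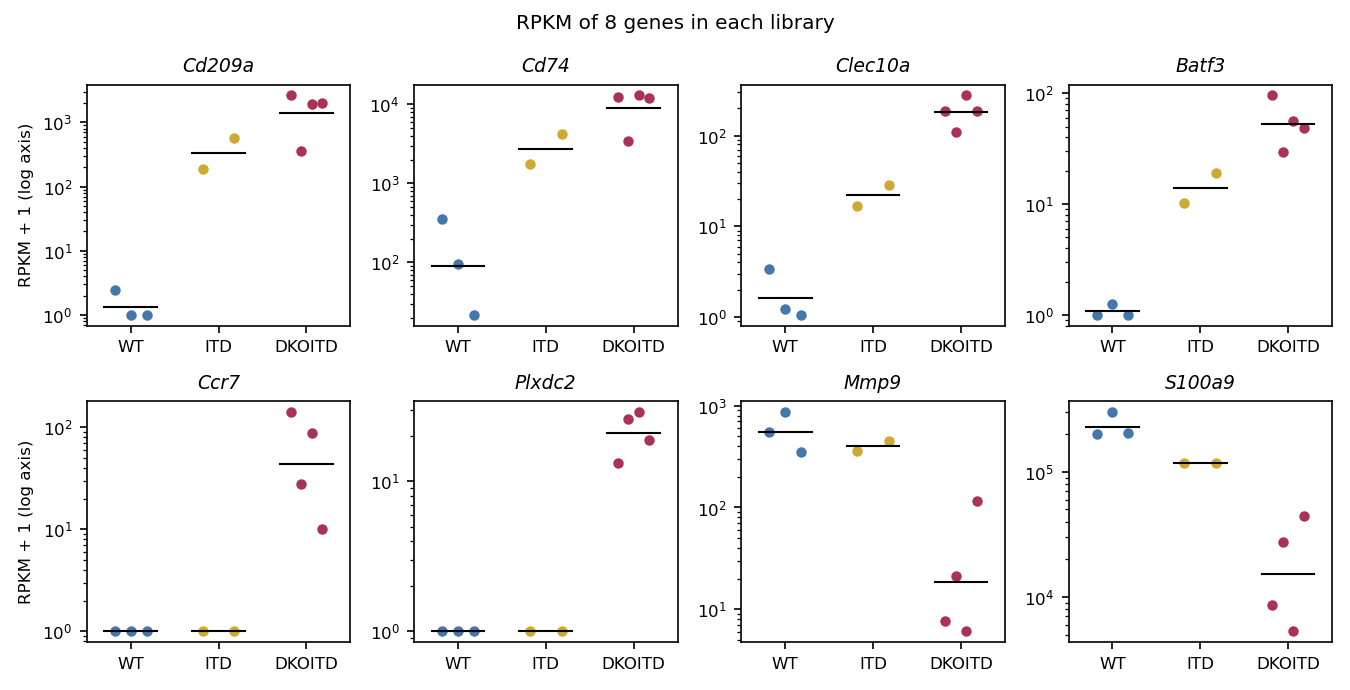
RPKM + 1 on a log axis for 8 genes, with a point for each library (3 WT, 2 ITD, 4 DKOITD) and a bar at the mean of the log values. Cd209a, Cd74, Clec10a and Batf3 were already high in both ITD libraries, Ccr7 and Plxdc2 were listed at 0 in all WT and ITD libraries, and Mmp9 and S100a9 fell mostly between ITD and DKOITD.

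Each step was also tested alone in a fit of the 3 group means. The steps share the 2 ITD libraries, so a high or low ITD value moves them in opposite directions. The first step, ITD against WT, passed for 1 of 10868 genes (0.0092%), with 862 at an unadjusted p under 0.05 (7.93%). The last step, DKOITD against ITD, passed for 23 genes (0.212%), of which 17 were higher (0.156%) and 6 lower (0.0552%), with 1701 at an unadjusted p under 0.05 (15.7%). The difference between the steps, which asks whether a gene leaves a straight line, passed for no gene in limma (0.0%; lowest adjusted p = 0.329), with 667 at an unadjusted p under 0.05 (6.14%). For single genes, then, the number of libraries did not separate a straight course from a bent one, and what follows on the shape of the course is a description.

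That description uses the first-step share, the ITD minus WT difference divided by the DKOITD minus WT difference. A gene is called mostly last below 1/3 (33.3%), even between, and mostly first above 2/3 (66.7%). Among the 838 genes that rose, 199 were mostly first (23.75%), 318 even (37.95%) and 321 mostly last (38.31%), with a median share of 0.44. Among the 620 that fell, 43 were mostly first (6.94%), 194 even (31.29%) and 383 mostly last (61.77%), with a median share of 0.27. Over all genes that differed by at least 1 in log2(RPKM + 1) between DKOITD and WT, called or not, 39.92% of 2342 higher and 51.05% of 1383 lower genes were mostly last. The falls had the larger mostly last share in each alternative for which both shares were computed. That leaves out the 2 other scores. It also leaves out both fits on the number series given below, where 0 genes fell. The difference was not tested.

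**Figure D2:**
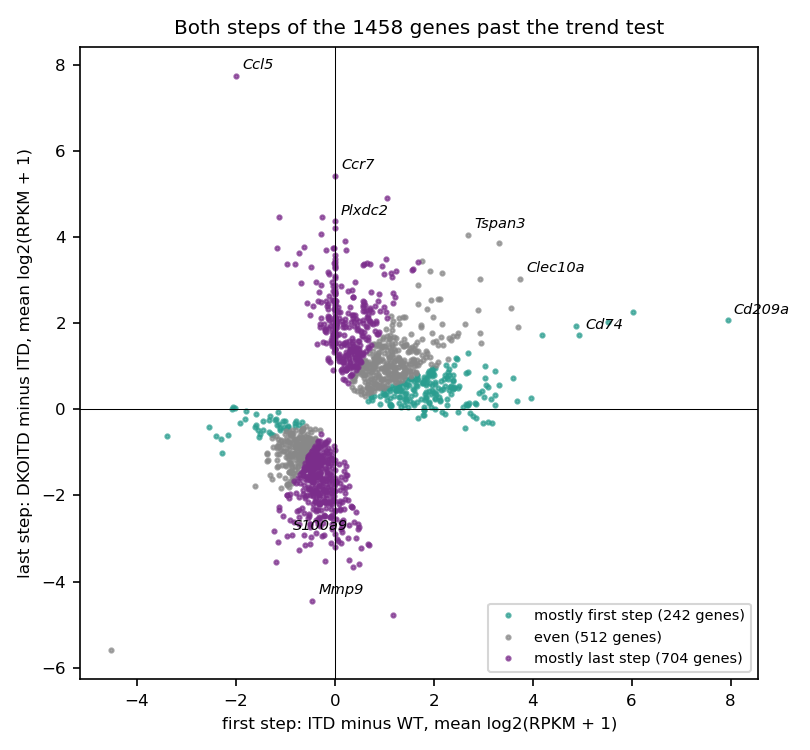
Difference of the first step (horizontal axis, ITD minus WT) against the last step (vertical axis, DKOITD minus ITD) in mean log2(RPKM + 1) for the 1458 genes past the trend test, coloured by first-step share. Genes that fell gather along the lower vertical axis (383 of 620 mostly last), while genes that rose spread from the vertical to the horizontal axis.

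Groups that did not overlap give the same question without a model. In 308 of 10868 genes (2.83%) the 3 groups stood in order with no overlap, 170 upward (1.56%) and 138 downward (1.27%). Among the genes past the trend test these were 149 of 838 that rose and 115 of 620 that fell. A further 390 that rose and 378 that fell had both ITD libraries clear of DKOITD but not clear of WT, each in the direction of the slope. Some of these had ITD beyond WT on the opposite side. With the ordered genes included, 28.2% of all tested genes had ITD clear of DKOITD in the direction of their slope. The other way round, 175 that rose and 67 that fell had ITD clear of WT but not clear of DKOITD in that direction. With the ordered genes included, 16.0% of all tested genes had ITD clear of WT. With 2 ITD libraries these counts rest on few values, and the typical standard error of the first step was 0.61 for genes that rose and 0.55 for genes that fell.

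The position of each library between the WT mean (0) and the DKOITD mean (1), as the median over genes, shows how evenly the groups moved. Over the 838 genes that rose, ITD 1 and ITD 2 lay at 0.44 and 0.49. Over the 620 that fell they lay at 0.27 and 0.23, so both ITD libraries sat nearer WT for the falls than for the rises. DKOITD 4 lay at 0.94 for the rises and 0.72 for the falls, and DKOITD 1 and DKOITD 3 lay at 1.17 and 1.22 for the falls. The libraries of one genotype thus differed from each other in how far these 620 genes had fallen. Among the 383 mostly last falls, DKOITD 4 was the nearest to WT of its group in 249 (65.0%) and was below both ITD libraries in 373 (97.4%). Among the 321 mostly last rises it was the nearest to WT in 145 (45.2%) and above both ITD libraries in 314 (97.8%). These genes were chosen by fits that include DKOITD 4. Its place past the ITD libraries was therefore largely set by that choice and does not test the number series.

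**Figure D3:**
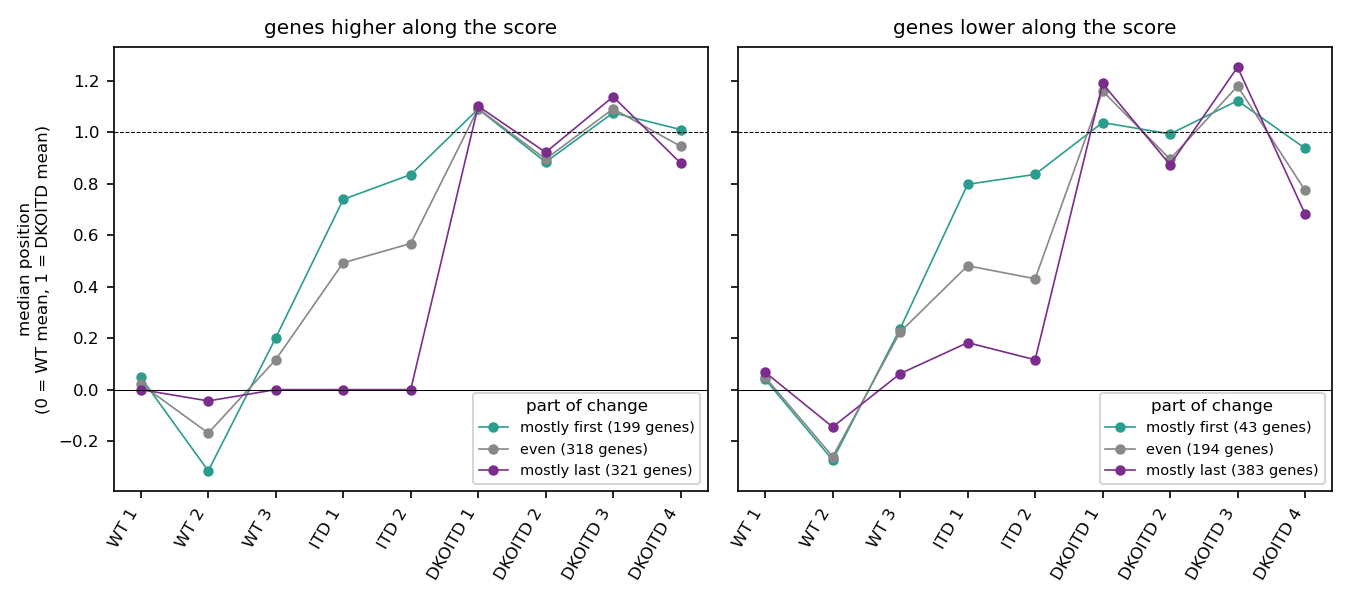
Median position of each library between the WT mean (0, solid line) and the DKOITD mean (1, dashed line) for genes past the trend test, by direction and by part of the change. ITD libraries lie near 0 in mostly last genes, and DKOITD 4 lies at 0.68 for mostly last genes that fell.

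The number series of the labels was set against the same counts. The 200s hold only DKOITD 1 to 3. Here and below, with the series as a term, the slope therefore rests on DKOITD 4 as the only DKOITD library. With the series as a term in the fit, 21 genes rose and 0 fell. The 21 were Clec10a, Cd209a, Trf, Batf3, Bcl2a1a, Tspan3, H2-DMa, Lpxn, Gm2a, Tifa, Clec4b1, Akr1c13, Cd74, Tmem176a, Pld4, H2-DMb1, Gramd3, Ifi205, Gm15987, H2-Ab1 and Ifi30, and in that fit 0.0% of them were mostly last. Among the 6 libraries of the 300s alone, 0 genes passed the trend test in limma. In that fit 164 passed the last step and 96 the difference between the steps, but DKOITD 4 is its only DKOITD library, so the spread within that genotype does not enter. For the genes that changed mostly at the last step, genotype and number series cannot be told apart. DKOITD 4 is the only DKOITD library in the 300s, and its values entered the choice of these genes.

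Genes of MHC class II rose along the score, with first-step shares that are given gene by gene, and the difference in share between the chains and the genes that load peptide was not tested. MHC class II molecules present peptides of engulfed material to helper T cells. H2-Aa, H2-Ab1 and H2-Eb1 are their chains, Cd74 is the invariant chain that guards the groove, H2-DMa, H2-DMb1 and H2-DMb2 load peptide, H2-Oa and H2-Ob modulate the loading, and Ciita is the coactivator that turns on the set. Promoters of class II genes are known for an X box, bound by RFX factors, and a Y box, bound by NF-Y. The 5 promoter windows below are shown because the set rose together while its members had different first-step shares. Each runs from base -150 to base -31 before the RefSeq start on the strand of the gene (GRCm38.p6, from RefSeq), a window chosen because the boxes lie there, and capitals mark AACNGATG (X box core) and ATTGG (Y box). The windows are chr17:34287854-34287973 for H2-Aa (minus strand), chr17:34305717-34305836 for H2-Eb1, chr17:34153041-34153160 for H2-DMb1, chr17:34145099-34145218 for H2-DMb2 and chr17:34238755-34238874 for H2-Ob (plus strand).
H2-Aa: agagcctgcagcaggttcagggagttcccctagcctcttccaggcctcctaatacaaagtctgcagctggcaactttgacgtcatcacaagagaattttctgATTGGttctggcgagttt
H2-Eb1: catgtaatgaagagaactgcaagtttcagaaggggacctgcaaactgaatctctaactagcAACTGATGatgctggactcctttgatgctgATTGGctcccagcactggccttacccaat
H2-DMb1: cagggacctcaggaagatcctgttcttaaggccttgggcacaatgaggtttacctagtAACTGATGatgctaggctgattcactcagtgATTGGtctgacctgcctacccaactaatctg
H2-DMb2: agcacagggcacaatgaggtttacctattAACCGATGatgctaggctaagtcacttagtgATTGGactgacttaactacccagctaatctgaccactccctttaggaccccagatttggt
H2-Ob: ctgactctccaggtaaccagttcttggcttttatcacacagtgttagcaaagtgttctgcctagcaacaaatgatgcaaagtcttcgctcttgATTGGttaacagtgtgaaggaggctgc

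H2-Eb1, H2-DMb1 and H2-DMb2 hold both motifs, with their first bases 30, 31 and 31 bases apart. H2-Aa and H2-Ob hold the Y box letters only. Only exact matches were marked, so a window without a mark may still hold a near match. Of the 8 windows read, the 3 not shown held the Y box alone (H2-Oa) or neither motif (both windows of H2-DMa). On the gene's strand, both motifs together were found in 0.05% of all 32851 RefSeq promoters in the same window of 120 bases, the X box core in 0.51% and the Y box in 11.61%. On either strand the shares were 0.16%, 0.92% and 21.16%. A match is a description of letters and does not show a bound factor. H2-Ab1 is not printed.

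H2-Aa (chromosome 17, 34282744 to 34287823) measured 290.5, 5.54 and 9.85 RPKM in WT, 733 and 2166 in ITD and 7069, 2042, 6770 and 7348 in DKOITD. H2-Eb1 (chromosome 17, 34305867 to 34316674) measured 212, 0 and 1.09 RPKM in WT, 282 and 878 in ITD and 3176, 843, 3370 and 3529 in DKOITD. Cd74 measured 351, 93.3 and 20.6 RPKM in WT, 1782 and 4183 in ITD and 12463, 3404, 12963 and 12122 in DKOITD. In all 3 genes both ITD libraries were above all WT libraries, WT 1 was the highest of its group, and DKOITD 2 lay below ITD 2. The slope was 3.72 ± 0.54 for H2-Aa (SE, adjusted p = 0.00236), 4.08 ± 0.70 for H2-Eb1 (SE, adjusted p = 0.00492) and 3.28 ± 0.42 for Cd74 (SE, adjusted p = 0.00117; limma). The first step made up 0.73, 0.73 and 0.74 of the whole difference, but it did not pass alone (4.93 ± 0.92, SE, adjusted p = 0.217 for Cd74). H2-Ab1 had the same course, at 343, 70.6 and 12.7 RPKM in WT, 1199 and 3515 in ITD and 12250, 2568, 10697 and 11315 in DKOITD.

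H2-DMa measured 43.1, 17.1 and 23.5 RPKM in WT, 94.7 and 229 in ITD and 690.3, 232, 554 and 598 in DKOITD, with a first-step share of 0.59. H2-DMb1 had a share of 0.62, H2-DMb2 of 0.41, H2-Oa of 0.34 and H2-Ob of 0.43. ITD 1 was listed at 0 for H2-Oa and H2-Ob, while ITD 2 measured 26.6 and 13.6 RPKM. Ciita measured 1.31, 0 and 0.0303 RPKM in WT, 2.51 and 3.79 in ITD and 14.8, 3.51, 11.1 and 20.2 in DKOITD, and it rose by 1.56 ± 0.29 per step (SE, adjusted p = 0.00596, limma) with a share of 0.52. H2-DMb1 and H2-DMb2 are near-identical copies and may share reads.

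Cd209a was the gene past the first-step test. It is a C-type lectin of monocyte-derived and conventional dendritic cells (chromosome 8, 3743397 to 3748984). It measured 1.40, 0 and 0 RPKM in WT, 188 and 569.5 in ITD and 2628, 356, 1965 and 1977 in DKOITD, so both ITD libraries were far above every WT library and DKOITD 2 lay between them. The first step was 7.94 ± 0.77 (SE, adjusted p = 0.00248) and the last 2.07 ± 0.73 (SE, adjusted p = 0.189; limma). Without ITD 2 no gene passed the first-step test, without WT 1 there were 10, without WT 3 there were 47 and without DKOITD 2 there were 2. Batf3, a transcription factor of cross-presenting dendritic cells, measured 0, 0.248 and 0 RPKM in WT, 9.28 and 18.2 in ITD and 94.4, 28.4, 55.3 and 47.6 in DKOITD. Its 3 groups did not overlap, its slope was 2.78 ± 0.25 (SE, adjusted p = 0.000103) and its first step just missed the threshold (adjusted p = 0.0552, limma), as did that of Trf, the iron carrier transferrin, at the same adjusted p.

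Genes that moved at each step are those whose groups stood in order. No gene passed both step tests, and Clec10a came nearest. Clec10a, a lectin of dendritic cells and macrophages (chromosome 11, 70156197 to 70170834), measured 2.35, 0.235 and 0.0575 RPKM in WT, 15.9 and 27.6 in ITD and 186, 109, 276 and 186 in DKOITD. The 3 groups did not overlap, with a first step of 3.75 ± 0.56 (SE, adjusted p = 0.0552) and a last step of 3.04 ± 0.53 (SE, adjusted p = 0.044; limma). Its slope, 3.38 ± 0.23, had the lowest adjusted p of the 10868 genes (1.09e-05, limma). Clec4b1, another myeloid lectin, measured 11.8, 0.902 and 1.1 RPKM in WT, 29.9 and 61.6 in ITD and 332, 116, 322 and 205 in DKOITD. Bcl2a1a, a survival protein of the BCL2 family with near-identical copies that may share its reads, measured 0.0671, 0 and 0.217 RPKM in WT, 3.48 and 14.7 in ITD and 106, 30.2, 90.1 and 73.4 in DKOITD. Both stood in order without overlap, with slopes of 2.94 ± 0.31 (SE, adjusted p = 0.000256) and 2.99 ± 0.26 (SE, adjusted p = 0.000103; limma).

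The tetraspanin Tspan3 was at 0 in all WT libraries and measured 9.12 and 3.11 RPKM in ITD and 168, 125, 283 and 21.4 in DKOITD. Tmem176a, a membrane protein of dendritic cells, measured 0, 0 and 5.55 RPKM in WT, 5.52 and 52.7 in ITD and 415, 176, 358 and 209.5 in DKOITD, so ITD 1 did not leave the WT range. The slopes were 3.40 ± 0.35 for Tspan3 (SE, adjusted p = 0.00025) and 3.60 ± 0.37 for Tmem176a (SE, adjusted p = 0.000236; limma). Including Tspan3, 8 genes were at 0 in all WT libraries and at least 1 RPKM in all ITD and DKOITD libraries, the others being Hmgn3, Ifi44, Kbtbd11, Ntmt1, Olfr433, Rabl5 and Rcl1. These were picked by their values, so the count is a description.

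Over the list of dendritic cell and MHC class II genes, 26 of 33 tested members rose and 0 fell, beside rises in 7.71% of all genes. Members of this and the other lists were chosen with earlier results of these data known. The contrast with all genes may therefore be partly set by that choice. Of the 26, 8 were mostly first, 10 even and 8 mostly last. The median slope of the list was 1.92, with 1.62 for the first step and 1.94 for the last, against 0.09, 0.00 and 0.11 over all genes. Its mean log2(RPKM + 1) was 2.09 in WT, 4.04 in ITD and 6.19 in DKOITD. All 9 libraries kept this order by group, from 1.77 (WT 3) to 2.70 (WT 1), then 3.69 and 4.39 in ITD and 5.43 (DKOITD 2) to 6.71 (DKOITD 3). With the number series as a term the median slope of the list was 1.62, and fewer of its members rose. That slope rests on DKOITD 4 alone of its group. In libraries of 100 pooled cells, more cells of a type and more RNA per cell cannot be told apart.

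Other members of the list had low first-step shares. The 4 given here are known from mature, migrating dendritic cells, were chosen after their values were seen, and their difference from the class II chains was not tested. Ccr7, the chemokine receptor that leads dendritic cells to lymph nodes (chromosome 11, 99144196 to 99155077), was at 0 in all WT and ITD libraries and measured 140.1, 26.7, 87.03 and 9.19 RPKM in DKOITD. Its last step was 5.44 ± 0.86 (SE, adjusted p = 0.0372, limma), a value that depends on the pseudocount because the other groups are at 0. Ccl22, a chemokine of mature dendritic cells, was likewise at 0 in WT and ITD and measured 6.64, 16.3, 13.7 and 10.1 RPKM in DKOITD, with a last step of 3.60 ± 0.51 (SE, adjusted p = 0.0334, limma). The maturation marker Cd83 measured 2.52, 0 and 0 RPKM in WT, 8.94 and 0 in ITD and 158, 55.1, 196 and 46.4 in DKOITD, and its last step missed the threshold (adjusted p = 0.0578, limma) although its slope passed (3.05 ± 0.46, SE, adjusted p = 0.00262). Tnfsf9, a costimulatory ligand of the tumour necrosis factor family, measured 0, 0 and 1.05 RPKM in WT, 0.520 and 0 in ITD and 16.6, 24.7, 21.04 and 6.67 in DKOITD. In these 4 genes every DKOITD library was above every other library, and DKOITD 4 was the lowest of its group for Ccr7, Cd83 and Tnfsf9.

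Altogether 34 genes were at 0 in all WT and ITD libraries and at least 1 RPKM in all DKOITD libraries. This set, again picked by its values, passed the expression filter through DKOITD only. Its observed spread lies within DKOITD alone, so the p-values given for its members here and above are a description. Besides Ccr7 and Ccl22 it held Socs2, a feedback inhibitor induced by STAT5, Il7r, the interleukin 7 receptor of lymphoid cells, Spib, a transcription factor of plasmacytoid dendritic cells and B cells, Tox, a nuclear factor of T cell development, and Tnfrsf4 and Tnfsf8 of the tumour necrosis factor receptor and ligand families. Plxdc2, a transmembrane protein, measured 12.3, 25.2, 28.03 and 17.8 RPKM in DKOITD and had the lowest adjusted p of the last step (4.38 ± 0.51, SE, adjusted p = 0.0192, limma). Socs2 measured 17.1, 5.78, 11.03 and 4.95 RPKM in DKOITD (last step 3.28 ± 0.56, SE, adjusted p = 0.0393, limma). P2ry10, a lysophospholipid receptor of lymphocytes, measured 14.6, 7.45, 19.6 and 5.03 RPKM (last step 3.50 ± 0.57, SE, adjusted p = 0.0372, limma). No gene had the opposite course, at least 1 RPKM in all WT and ITD libraries and 0 in all DKOITD libraries.

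Of the 23 genes past the last-step test, 20 also passed the trend test, 16 higher and 4 lower. Among the 16 were Akr1e1, Ccl22, Ccr7, Chn2, Clec10a, Depdc7, Grap, Nme4, P2ry10, Plxdc2, Sdhaf1, Snora31, Snord83b, Socs2 and Tnfsf9. The 4 lower genes were Cd63, Gm19705, Hk3 and Slfn4. Cd63, a tetraspanin of granule membranes, measured 190, 270.4 and 387 RPKM in WT, 273 and 245 in ITD and 43.1, 45.5, 48.5 and 71.96 in DKOITD, and it fell by 2.31 ± 0.35 on the log2 scale in the last step (SE, adjusted p = 0.0364, limma). Hexokinase Hk3, the myeloid form of the enzyme, measured 61.9, 83.6 and 92.9 RPKM in WT, 66.1 and 58.8 in ITD and 8.37, 9.87, 6.36 and 19.3 in DKOITD (adjusted p = 0.0393, limma). The number called at this step rests on few libraries: it was 0 without ITD 2 or without DKOITD 3, 1 without ITD 1 or without DKOITD 1, 42 without WT 2 and 157 without DKOITD 4.

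Neutrophil genes made up the other side. Secondary and tertiary granule proteins and maturation genes are made from the myelocyte stage on. Of 46 tested members of that list 29 fell and 0 rose, beside falls in 5.7% of all genes. These members, too, were chosen with earlier results of these data known. Of the 29, 28 were mostly last. The median slope of the list was -1.25, with -0.27 for the first step and -1.98 for the last. The mean log2(RPKM + 1) of the list was 8.73 to 8.84 in WT, 8.29 and 8.47 in ITD, and 6.08, 7.67, 5.73 and 7.51 in DKOITD 1 to 4. The DKOITD libraries fell into a lower pair (1 and 3) and a higher pair (2 and 4). The list had 22 to 36 falls when any 1 library was left out. With the number series as a term its median slope was -0.57 and its falls were lost. That slope, too, rests on DKOITD 4 alone of its group.

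Mmp9, the gelatinase of tertiary granules (chromosome 2, 164940780 to 164955850), measured 550.5, 866 and 346 RPKM in WT, 355 and 448 in ITD and 6.60, 20.3, 5.06 and 116 in DKOITD. ITD lay inside the WT range and all DKOITD libraries below it, with a slope of -2.51 ± 0.46 (SE, adjusted p = 0.0059) and a last step of -4.44 ± 0.91 (SE, adjusted p = 0.0578; limma). S100a9, a subunit of the calprotectin dimer of neutrophils, measured 199257, 300483 and 203262 RPKM in WT, 117676 and 118311 in ITD and 8668, 27338, 5305 and 44588 in DKOITD. Its groups stood in order without overlap and it fell by 1.98 ± 0.34 per step (SE, adjusted p = 0.00478, limma). The call was lost with quantile normalization (slope -0.79, adjusted p = 0.144, limma) and with no filter on low values (adjusted p = 0.303, limma). Camp, the cathelicidin of secondary granules, measured 75712, 82598 and 61588 RPKM in WT, 66118 and 56288 in ITD and 4062, 11964, 4203 and 19398 in DKOITD (slope -1.64 ± 0.31, SE, adjusted p = 0.00641, limma). Csf3r, the receptor of the neutrophil growth factor G-CSF, measured 71.4, 75.4 and 75.5 RPKM in WT, 68.98 and 90.7 in ITD and 9.83, 23.4, 6.83 and 44.2 in DKOITD (slope -1.09 ± 0.29, SE, adjusted p = 0.0264, limma). For Camp and Csf3r the ITD libraries lay close to the WT values and every DKOITD library was lower.

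The reads of 2 genes show the size of this shift. S100a8 and S100a9 together held 27.7% ± 3.51 of recovered reads in WT (SD, n = 3), 20.6% in both ITD libraries and 5.76% ± 4.24 in DKOITD (SD, n = 4). The slope was -11.1 percentage points per step (exact permutation test over 1260 arrangements, two-sided, p = 0.000794, adjusted over 4 library measures p = 0.00318). S100a9 was already among the falls on this score in the same libraries, so the test is no separate support. Genotype and number series overlap here as well. In DKOITD the share was 2.66%, 8.77%, 1.60% and 9.99% in libraries 1 to 4, the same division into pairs as in the granule list. Itgam, the gene of the sort marker (chromosome 7, 128062640 to 128118491), measured 100.5, 143 and 90.2 RPKM in WT, 78.2 and 97.3 in ITD and 10.98, 33.3, 24.8 and 39.03 in DKOITD. It fell by 1.08 ± 0.22 per step (SE, adjusted p = 0.00825, limma), mostly in the last step (share 0.15). The transcript of the marker that defined the gate thus moved with the score, and its part in the other results was not tested.

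**Figure D4:**
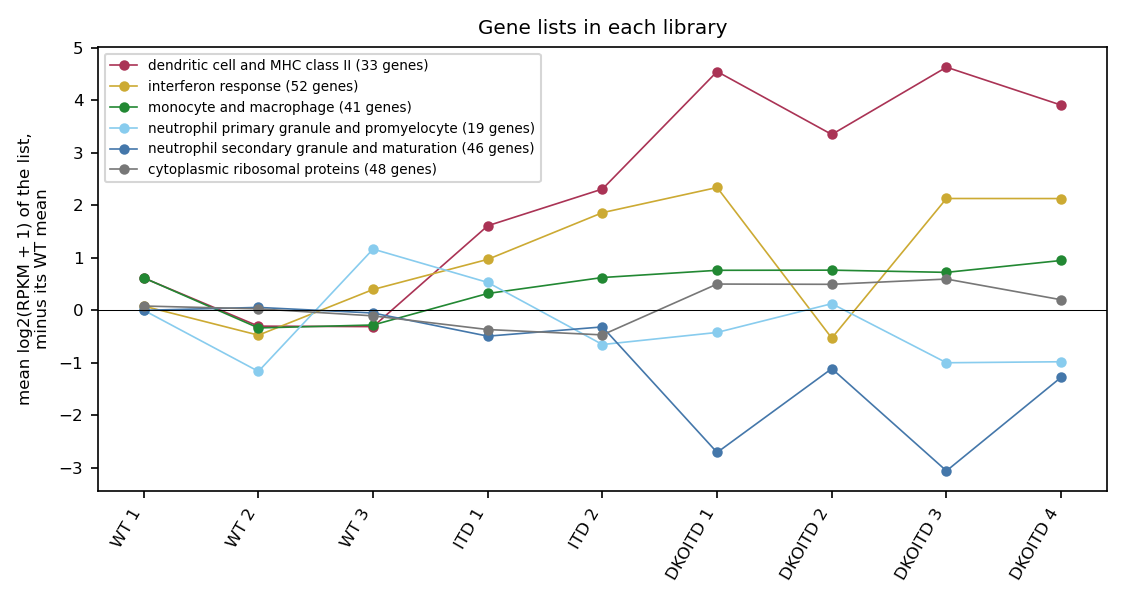
Mean log2(RPKM + 1) of 6 gene lists in each library, minus the WT mean of the list. The dendritic list rises at both steps, the secondary granule list stays near 0 in ITD and falls in DKOITD, and the interferon list is raised in ITD and in 3 of 4 DKOITD libraries but not in DKOITD 2.

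Genes of earlier neutrophil stages fell in smaller number. Among 19 tested primary granule and promyelocyte genes 7 fell and 0 rose, beside falls in 5.7% of all genes. Of the 7, 6 were mostly last, and the median slope of the list was -0.19. This list was uneven within WT, with a mean log2(RPKM + 1) of 7.13 in WT 3 and 4.80 in WT 2. Without DKOITD 3 it had 3 falls, and without DKOITD 1 or WT 3 it had 4. Hdc, the histamine-forming enzyme of granulocytes and their precursors, measured 74.5, 202 and 141 RPKM in WT, 81.9 and 184 in ITD and 18.02, 10.9, 10.6 and 53.4 in DKOITD (slope -1.41 ± 0.31, SE, adjusted p = 0.0131, limma). Oxidase subunits and granulocyte receptors fell in 11 of 26 members and rose in 2, beside 5.7% and 7.71% of all genes. Of the 11 falls, 9 were mostly last. The number of falls was 5 without DKOITD 1 or without DKOITD 3, 6 without WT 2, and 4 with scaling to recovered reads. The oxidase subunit Ncf1 measured 353, 506 and 359 RPKM in WT, 261 and 279 in ITD and 42.5, 71.1, 41.1 and 161 in DKOITD, in order without overlap (slope -1.30 ± 0.22, SE, adjusted p = 0.00465, limma). The 2 members that rose were Itgax, the CD11c integrin of dendritic cells, and the inhibitory receptor Fcgr2b.

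Other genes that fell were members of none of these lists. Trp53inp2, a regulator of autophagy, measured 39.8, 75.7 and 30.4 RPKM in WT, 20.1 and 19.5 in ITD and 0, 1.81, 0.164 and 9.85 in DKOITD (slope -2.15 ± 0.37, SE, adjusted p = 0.00465, limma). Olfml2b, a secreted protein, measured 50.4, 35.3 and 57.1 RPKM in WT, 13.98 and 26.8 in ITD and 0, 5.39, 0.239 and 7.48 in DKOITD (slope -2.05 ± 0.36, SE, adjusted p = 0.00492, limma). Both stood in order without overlap, with DKOITD 4 the highest of its group. Falls at an even pace included Sun2, a protein of the nuclear envelope, at 32.2, 45.04 and 38.4 RPKM in WT, 18.01 and 16.7 in ITD and 3.74, 5.10, 2.65 and 5.87 in DKOITD (slope -1.47 ± 0.19, SE, adjusted p = 0.000944, limma). The protease subunit Capn1 had the same ordered course (slope -1.46 ± 0.26, SE, adjusted p = 0.00563, limma).

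Falls with most of the difference at the first step were few (43). Cebpd, a C/EBP transcription factor of myeloid cells, measured 52.99, 109 and 67.8 RPKM in WT, 29.9 and 20.3 in ITD and 15.7, 18.4, 6.30 and 29.6 in DKOITD, so ITD was clear of WT and DKOITD 4 lay at the ITD level. It fell by 1.08 ± 0.23 per step (SE, adjusted p = 0.0113, limma), and the first step held 0.70 of the difference. Lars2, the mitochondrial leucyl-tRNA synthetase, measured 383, 2011 and 170.5 RPKM in WT, 113 and 81.6 in ITD and 38.9, 86.4, 52.05 and 86.99 in DKOITD (slope -1.47 ± 0.33, SE, adjusted p = 0.0137, limma), and WT 2 stood far above the others. Cela1, Pxmp2 and Rpia, the other mostly first falls with the largest slopes, lost their call without WT 2 (adjusted p = 0.0845, 0.125 and 0.133, limma) and without several other single libraries.

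Genes of monocytes rose in part, and seldom at the last step alone. Of 41 tested members 16 rose and 1 fell, beside 7.71% and 5.7% of all genes. Of the 16, 7 were mostly first, 7 even and 2 mostly last. The median first step of the list was 0.69 and the median last step 0.32. Without DKOITD 3 there were 7 rises, and without WT 2 or without DKOITD 1 there were 9. Ms4a6b, a membrane protein of monocytes and macrophages, measured 63.9, 15.98 and 37.5 RPKM in WT, 163 and 242 in ITD and 455, 154, 344 and 283 in DKOITD, with both ITD libraries above WT and DKOITD 2 below both ITD libraries (slope 1.49 ± 0.26, SE, adjusted p = 0.00473, limma). Ctss, the cathepsin that trims the invariant chain, measured 778, 366 and 312 RPKM in WT, 816 and 1281 in ITD and 2236, 1281, 2095 and 2052 in DKOITD (slope 1.03 ± 0.17, SE, adjusted p = 0.00432, limma). Mrc1, the macrophage mannose receptor, was mostly last, at 1.15, 0.0166 and 0.195 RPKM in WT, 1.20 and 2.44 in ITD and 7.54, 41.9, 24.4 and 37.6 in DKOITD (slope 2.11 ± 0.32, SE, adjusted p = 0.00275, limma). The member that fell was Cybb, the catalytic oxidase subunit, which neutrophils also carry.

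Interferon response genes had a raised median at the first step and none at the last. Of 52 tested members 8 rose and 0 fell, beside rises in 7.71% of all genes. Of the 8, 4 were mostly first and 4 even. The list had a median first step of 1.21 and a median last step of -0.04. These counts turned on 1 library and on the scaling. The mean log2(RPKM + 1) of the list was 3.31, 2.76 and 3.63 in WT, 4.20 and 5.09 in ITD, and 5.57, 2.70, 5.36 and 5.36 in DKOITD, so DKOITD 2, the shallowest library, lay below every other library. Without it 27 of 52 rose and the median last step was 0.58. With all 9 libraries scaled per recovered read there were also 27 rises, with a median last step of 0.47, beside rises in 2621 of all 10868 genes. Without DKOITD 1 or without DKOITD 3 there were 5 rises. Usp18, a brake on interferon signalling, measured 9.77, 1.55 and 15.9 RPKM in WT, 43.2 and 82.7 in ITD and 156, 12.2, 164 and 134 in DKOITD (slope 1.67 ± 0.44, SE, adjusted p = 0.0268, limma). Bst2, the antiviral protein tetherin, which is also a marker of plasmacytoid dendritic cells, measured 16.5, 3.58 and 19.9 RPKM in WT, 40.3 and 60.8 in ITD and 239.7, 45.7, 137 and 89.2 in DKOITD (slope 1.58 ± 0.29, SE, adjusted p = 0.00596, limma).

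Signalling genes of FLT3 and STAT5 rose in 6 of 28 tested members and fell in 3, beside 7.71% and 5.7% of all genes. Of the 6, 4 were mostly last and 2 even, and the median slope of the list was 0.20. Ccnd2, a D cyclin of cytokine-driven division, measured 0.0185, 0.705 and 0.105 RPKM in WT, 0.222 and 1.11 in ITD and 12.6, 7.39, 14.6 and 4.35 in DKOITD (slope 1.53 ± 0.29, SE, adjusted p = 0.00644, limma). Every DKOITD library was above all WT and ITD libraries. The list had 1 fall without DKOITD 1 or without DKOITD 3. Of 24 PRC2 and RUNX complex genes 1 rose (Cbfa2t3, a corepressor) and 1 fell (Phf1, an accessory PRC2 subunit), beside the same shares of all genes. With scaling per recovered read 4 rose. Neither call held without DKOITD 1 (adjusted p = 0.0557 and 0.0711, limma) or without DKOITD 3 (adjusted p = 0.053 and 0.0508, limma). Phf1 also lost its call without WT 2 (adjusted p = 0.0738, limma).

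In the lists of other cells in marrow, 3 of 7 B lineage, 5 of 12 T lineage and 4 of 4 NK genes passed, beside 13.4% of all genes. B lineage genes rose in 2 of 7 tested members, Fcrla and Cd79b, and Bank1 fell. Pax5, Vpreb2, Vpreb3, Igll1, Rag2, Blk and Dntt were at 0 in all 9 libraries. Cd79b, a signalling chain of the B cell receptor, measured 12.8, 5.16 and 13.98 RPKM in WT, 7.65 and 22.1 in ITD and 64.2, 57.5, 70.7 and 42.05 in DKOITD, with ITD 1 inside the WT range, ITD 2 above it and every DKOITD library higher (slope 1.24 ± 0.24, SE, adjusted p = 0.00652, limma). The summed RPKM of the list was 13.06 to 22.8 in WT, 13.4 and 25.6 in ITD and 58.1 to 123 in DKOITD. Of 12 T lineage and early thymic progenitor genes 3 rose (Cd7, Il7r and Tox) and 2 fell (Notch1 and Cd44), with 1 rise and 0 falls without WT 2, DKOITD 1 or DKOITD 3. Cd3e, Cd247, Bcl11b, Lat and Themis were at 0 throughout. Of 4 NK and cytotoxic genes Ccl5, Klrd1 and Klrk1 rose and Nkg7 fell, and 1 rise was left without any 1 of WT 1, WT 3, DKOITD 1, DKOITD 3 and DKOITD 4. Klra8, Gzmb, Prf1, Tbx21 and Il2rb were at 0 in every library. Ccl5, a chemokine, measured 0, 78.6 and 0 RPKM in WT, 0 and 0.161 in ITD and 765, 124, 498 and 60.6 in DKOITD, and its call was lost without any 1 DKOITD library (adjusted p = 0.114, 0.0664, 0.112 and 0.0566 without libraries 1 to 4, limma). Their part in the other results was not tested.

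Plasmacytoid dendritic cell genes rose in 3 of 8 tested members (Bst2, Spib and Tcf4) and stem and progenitor genes in 2 of 9 (Cd34 and Cd48), with a fall of Prom1. These small counts stand beside rises in 7.71% and falls in 5.7% of all genes. Cd34, a marker of progenitors, measured 0, 0 and 0.0659 RPKM in WT, 1.54 and 0 in ITD and 6.23, 6.89, 11.6 and 4.63 in DKOITD, and every DKOITD library was above the rest (slope 1.51 ± 0.26, SE, adjusted p = 0.00492, limma). Proliferation genes rose in 0 and fell in 4 of 51 members, beside falls in 5.7% of all genes. There was 1 fall without DKOITD 3 and there were 2 without DKOITD 2, while 2 rose and 4 fell without WT 3, and 2 rose and 0 fell with scaling per recovered read. Ribosomal protein genes rose in 8 of 48, 7 mostly last, beside 7.71% of all genes. They rose in 0 without DKOITD 3, in 1 without DKOITD 1 or without WT 2, in 3 without DKOITD 2, in 2 without DKOITD 4, and in 22 with scaling per recovered read, which gave 2621 rises among the 10868 genes. Immediate early and stress genes rose in 3 of 27 and fell in 2, beside 7.71% and 5.7% of all genes. They rose in 0 without WT 1, DKOITD 1 or DKOITD 3, in 1 without WT 2, and in 9 with scaling per recovered read. None of the 5 tested eosinophil, basophil and mast cell genes passed in limma.

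Erythroid and megakaryocyte genes rose in 0 and fell in 1 of 8 tested members, Nfe2, beside falls in 5.7% of all genes. Without WT 3 the list had 4 falls. The beta-globin entry Beta-s was not counted among these 8 members. Beta-s measured 17103, 5372 and 17.02 RPKM in WT, 0 and 2669 in ITD and 0, 0, 0.289 and 0 in DKOITD, so globin reads were present in WT 1, WT 2 and ITD 2 and near 0 in all DKOITD libraries. Its slope of -5.08 ± 1.15 (SE, adjusted p = 0.0146, limma) did not pass without WT 1 or without WT 2 (adjusted p = 0.0505 for each, limma). Hbb-b2, Hba-a1 and Hba-a2 were listed at 0 in all libraries, and near-identical globin copies may lose or share reads.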

How the data were processed

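The authors deposited RPKM values per gene symbol in 1 table of 9 libraries. Per the submitters' processing notes, the tools were STAR 2.4.2a, SAMtools 1.1 and HTSeq 0.6.1p1 with the mm10 build, and neither annotation, counting settings nor RPKM scaling is given in the sources used here. Groups come from the sample titles. Read depth was recovered from the whole-number steps of the values: all 15566 genes above 0 came out whole within 0.0001 reads, and the denominators of the deposited RPKM were 0.70 to 0.81 times the recovered reads in WT, 0.85 to 0.92 in ITD and 1.13 to 1.44 in DKOITD. The smallest multiple that fitted was taken, so recovered reads may be too low. A gene above 0 in only 1 library is whole by construction, so the full match is only a partial check of the depths. Reads are PCR copies without molecular tags, so depth overstates the number of molecules.

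Genes with at least 1 RPKM in at least 2 libraries were fitted as log2(RPKM + 1) with limma 3.58.1 in R 4.3.3 (lmFit, eBayes with trend), once on the score and once on the 3 group means, two-sided, with Benjamini-Hochberg adjustment over 10868 genes and a threshold of 0.05. Differences on this scale understate changes of low genes. The scripts were tested on simulated data. Alternatives changed the pseudocount, the filter, the scaling, library weights, the score, a replicate block, the label number series and the libraries used, and 1 (without WT 2 and DKOITD 2) was chosen after seeing the data.

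Genes named are the targeted genes and Itgam, the 5 largest slopes for each direction and part of change (leaving out predicted models, ribosomal protein copies and small RNAs) and up to 3 members of each of 18 lists. Others were named after their values were seen. The members and lists were chosen with earlier results of these data known. Positions are from GENCODE vM21 in mm10 coordinates, by symbol, and promoters from RefSeq. Without strand, antisense and overlapping genes share reads.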

Additional observations from a re-analysis of the deposited data

Results flagged for a closer look

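Each of the 75 named genes was checked for a DKOITD library far from the other 3, and 7 were found. Chance alone gives about 1 in 20 such groups. For 6 of them the library was DKOITD 2, the shallowest, which lay far below the rest: Cd209a at 356 RPKM, H2-Eb1 at 843 RPKM, H2-Aa at 2042 RPKM, H2-Ab1 at 2568 RPKM, Cd74 at 3404 RPKM and Phf11b at 12.9 RPKM. Beta-s measured 0.289 RPKM in DKOITD 3 and 0 in the other DKOITD libraries. The class II genes, Cd74 and Cd209a kept their trend call without DKOITD 2.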

How the results depend on the processing

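The counts (838 higher, 620 lower, 1 at the first step, 23 at the last, 0 departing from a line, 48.3% mostly last) rest on 9 libraries, of which 2 were ITD. When 1 library was left out they ranged from 326 to 1118 higher, 223 to 754 lower, 0 to 47 at the first step, 0 to 157 at the last, 0 to 1 departing and 33.2% to 53.1% mostly last. A lone ITD library is then assumed to vary like the other groups. With no filter on low values there were 427 higher, 314 lower, 3 at the first step and 3 departing. A pseudocount of 0.1 gave 2 at the first step and a pseudocount of 5 gave 59 at the last. Quantile normalization gave 42 at the last step. Scaling per recovered read gave 2621 higher, 259 lower, 274 at the last step and 44.4% mostly last, and library weights gave 526 at the last step and 55.5%. A score of 0, 0, 1 gave 642 higher and 529 lower, and a score of 0, 1, 1 gave 107 higher and 4 lower. Without WT 2 and DKOITD 2 together there were 472 higher, 294 lower, 71 at the last step and 50.9%.

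With a term for the label number series there were 21 higher, 0 lower, 0 at the last step and 0.0% mostly last. Within the 300s series there were 0 higher, 0 lower, 0 at the first step, 164 at the last and 96 departing, and no share could be given. The replicate block gave 459 higher, 395 lower, 0 at the first step and 57 at the last. Same-numbered libraries did not deviate together (correlations of -0.044 to 0.071), so the numbers do not pair them. In both fits on the number series the slope rests on DKOITD 4 as the only DKOITD library. Other causes were not tested. Of 73 named genes with a trend, 49 kept the call whichever library was left out, 65 lost it with the series as a term and 28 without the filter. Scaling per recovered read turned the median slope of the proliferation list from -0.17 to 0.19 and that of the primary granule list from -0.19 to 0.17, while the median of all genes moved from 0.09 to 0.37. Depth limits low genes most in DKOITD 2 (2824091 reads).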

Other observations

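A few genes were set apart in ITD from both other groups. Renbp, which binds renin, measured 23.3, 11.5 and 11.8 RPKM in WT, 2.85 and 2.89 in ITD and 25.6, 33.6, 22.1 and 18.8 in DKOITD, so both ITD libraries were below all others. Ggt1, a glutathione-degrading enzyme, measured 2.80, 1.09 and 0.683 RPKM in WT and 5.90 and 7.25 RPKM in ITD and was at 0 in all DKOITD libraries. Crtac1 measured 1.94, 1.25 and 2.18 RPKM in WT, 5.21 and 10.9 in ITD and 0, 0, 0 and 0.434 in DKOITD. These 3 passed the last-step test but neither the trend test nor the test of the difference between the steps (adjusted p = 0.329 for each, limma). The GTPase gene Rem1 measured 0, 0 and 0.162 RPKM in WT, 7.31 and 7.13 in ITD and 1.55, 1.88, 1.15 and 2.66 in DKOITD and passed none of these tests (adjusted p = 0.329 for the difference between the steps, limma). All 4 were picked for these values.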
